A study of Homo sapiens with 2 samples.

Results

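Bone morphogenetic protein (BMP) signalling was examined through 10 genes of the pathway: the ligands BMP2, BMP4 and BMP6, the secreted antagonists NOG and GREM1, the targets ID1, ID2 and ID3, and the inhibitory SMADs SMAD6 and SMAD7. They were taken by symbol from 58735 genes in the deposited tables, and all 10 were found. The tables come from RNA sequencing of BT549, an established human line of triple-negative breast cancer whose cells look mesenchymal. The shSIK2 group carried a knockdown hairpin for SIK2, a kinase of the AMPK-related family, and the scrambled group a control hairpin. Cells of both groups had received Wnt3a, a ligand of the canonical Wnt pathway, for 2 h, so these libraries do not show what Wnt3a does. Each group was 1 library, so the spread between replicates is unknown and no test was made. The sources used here do not say whether the cells were a pool or a clone, or how many hairpins were used.

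BMP ligands are secreted dimers that bind paired type I and type II serine-threonine kinase receptors. The receptors phosphorylate SMAD1, SMAD5 and SMAD9, which enter the nucleus with SMAD4 and switch on genes such as the ID genes, SMAD6 and SMAD7. ID proteins lack a DNA-binding region and hold E proteins away from DNA, and they are known in breast cancer cells for their link to self-renewal and metastatic growth. Noggin and Gremlin 1 bind ligands outside the cell, whereas SMAD6 and SMAD7 block the signal inside it. This makes NOG, SMAD6 and SMAD7 parts of a negative feedback loop.

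Levels are given as FPKM, reads scaled for the exon length of a gene, so they can be set side by side between genes. The same depth figure was applied to both libraries, so levels and folds are not corrected for the difference in total reads, which would multiply shSIK2 over scrambled by 1.10. Whole reads were recovered from the values, with totals of 16347399 reads in the shSIK2 library and 18019225 in the scrambled library. Folds are ratios of these reads, with a 95% interval that covers counting error only. A gene was called higher or lower at 2-fold on the scale log2(FPKM + 0.1), where it had at least 1 FPKM in the higher library. SIK2 was the check on the labels: it stood at 3.56 FPKM in the shSIK2 library and 7.80 in the scrambled library, 2.19-fold lower (1.99 to 2.42). The mesenchymal markers VIM, FN1, ZEB1, AXL and CD44 summed to 526 FPKM in shSIK2 cells and 494 in scrambled cells. All 4 genes that a triple-negative mesenchymal line should lack, ESR1, PGR, CDH1 and EPCAM, were under 1 FPKM, with 2 and 17 reads in all in shSIK2 and scrambled cells. Leukocyte, endothelial and adipocyte markers, 12 in all, together had 9 reads in shSIK2 cells and 13 in scrambled cells, and PTPRC, PECAM1 and ADIPOQ were among them with at most 5 reads in either library.

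Of the 10 genes, 9 were measured at 1 FPKM or more, and BMP2, NOG and ID1 were the 3 called higher in shSIK2 cells. Among all 12866 measured genes, 11.0% were called higher. None of the 10 was called lower, against 8.28% of all measured genes. NOG passed the minimum through the shSIK2 library alone, so its call depends on that library. SMAD6 lay just inside the 2-fold limits, with a log2 ratio of 0.98. It was called higher when both libraries were scaled to equal totals, where 4 of the 10 genes were called higher and 0 lower, beside 13.4% and 6.04% of all measured genes. At a limit of 1.5-fold 4 were called higher and 2 lower, beside 19.7% and 21.3% of all measured genes. In bulk RNA, fewer cells that express a gene and less RNA per cell cannot be told apart.

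**Figure D1:**
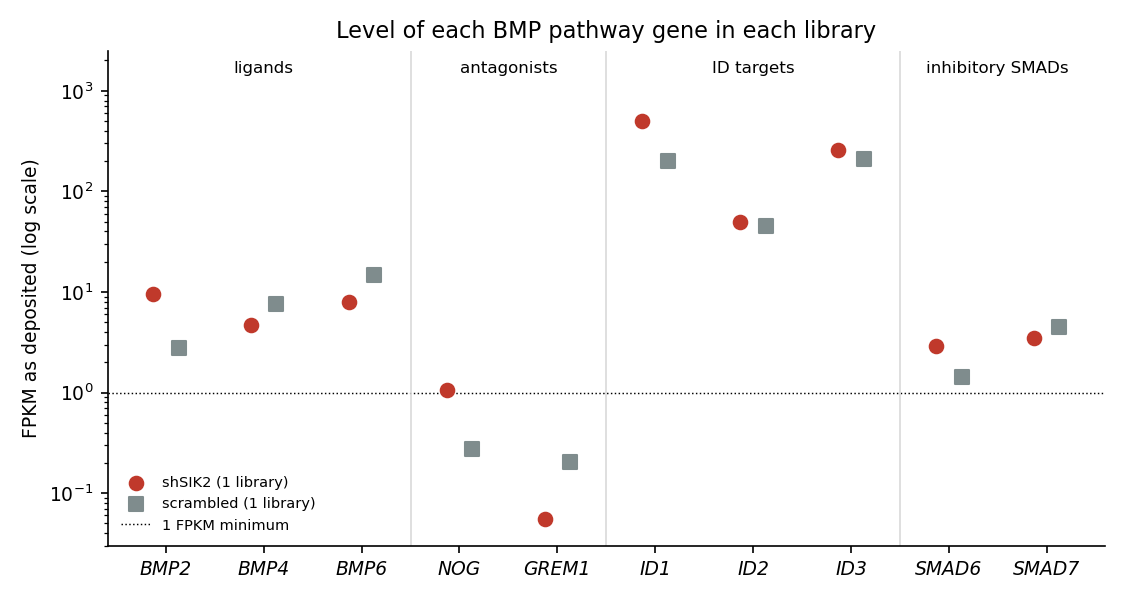
FPKM of each of the 10 genes (log axis) in the shSIK2 library (circles) and the scrambled library (squares), 1 point per library, with a dotted line at the minimum of 1 FPKM. ID1 and ID3 stood above 100 FPKM in both libraries, the ligands and inhibitory SMADs between 1.43 and 14.7 FPKM, and NOG and GREM1 at or under 1.05 FPKM.

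The ligands did not share a direction. BMP2 (ENSG00000125845, GRCh38 chromosome 20, 6767664 to 6780280), best known for bone induction, had 9.56 FPKM in shSIK2 cells and 2.75 FPKM in scrambled cells, from 591 and 170 reads. This was 3.48-fold higher in shSIK2 cells (2.93 to 4.15), and 4.45% of measured genes had a log2 ratio at least as high. BMP6 (ENSG00000153162, chromosome 6, 7726797 to 7881422), a ligand known for the control of iron balance in liver, had 7.99 FPKM in shSIK2 cells and 14.7 FPKM in scrambled cells. Its reads were 381 and 699, 1.83-fold lower in shSIK2 cells (1.62 to 2.08). BMP4 (ENSG00000125378, chromosome 14, 53949736 to 53958761), a close relative of BMP2 with roles in early development, had 4.69 FPKM in shSIK2 cells and 7.52 FPKM in scrambled cells. With 248 and 398 reads it was 1.60-fold lower (1.37 to 1.89). Neither BMP4 nor BMP6 reached the 2-fold limit.

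Ratios of folds between genes do not depend on how the libraries are scaled. The fold of BMP2 was 6.38 times that of BMP6 (5.16 to 7.88) and 5.58 times that of BMP4 (4.42 to 7.04). The folds of BMP4 and BMP6 differed by 1.14 times (0.93 to 1.40), within counting error. The order of the ligands by level differed between the libraries: BMP2, BMP6 and BMP4 from high to low in shSIK2 cells, and BMP6, BMP4 and BMP2 in scrambled cells. Neighbours in this order differed beyond counting error, least so BMP2 over BMP6 in shSIK2 cells, at 1.20 times (1.05 to 1.36). Summed over the 3 genes, the level was 22.2 FPKM in shSIK2 cells and 24.9 FPKM in scrambled cells. BMP2 made up 43.0% of that sum in shSIK2 cells and 11.0% in scrambled cells, and BMP6 made up 35.9% and 58.8%.

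Of 12 other BMP-type ligands, BMP7 alone was measured. BMP7, a ligand needed for kidney and eye development, had 5.95 FPKM in shSIK2 cells and 0.80 FPKM in scrambled cells, from 553 and 74 reads, and was 7.47-fold higher (5.85 to 9.66). It too passed the minimum in the shSIK2 library only. With BMP7 included, the ligand sum was 28.2 FPKM in shSIK2 cells and 25.7 FPKM in scrambled cells, a ratio of 1.10. The other 11 ligands had 16 reads in shSIK2 cells and 20 in scrambled cells, and 6 of them had none in either library. BMP3 had 8 reads in each library and BMP5 had 4 in shSIK2 cells and 8 in scrambled cells.

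**Figure D2:**
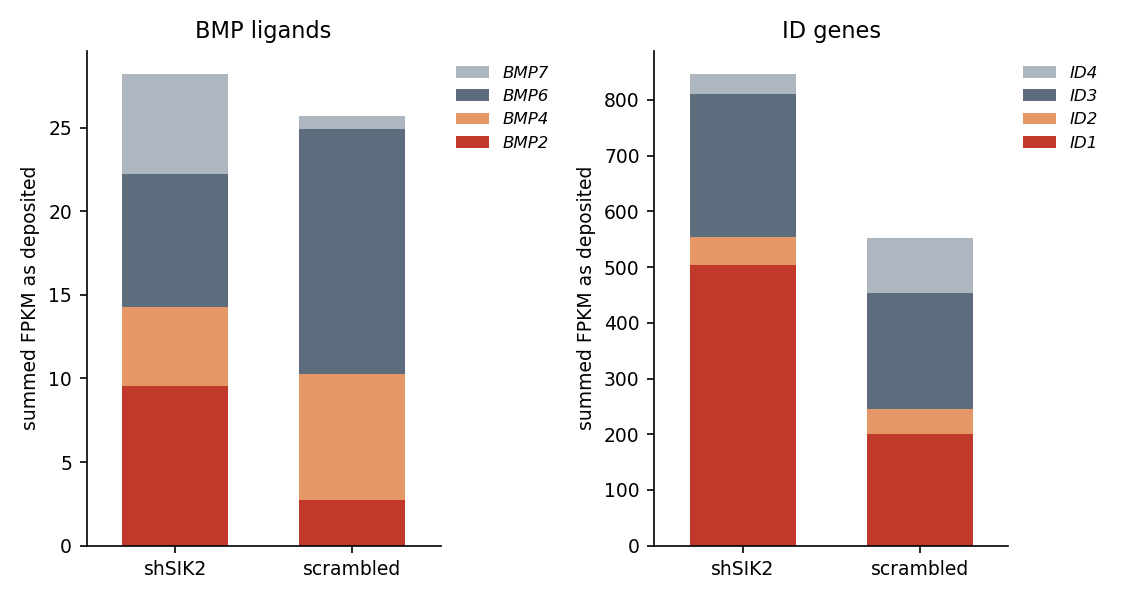
Summed FPKM of BMP2, BMP4, BMP6 and BMP7 (left) and of ID1, ID2, ID3 and ID4 (right), stacked by gene, in the shSIK2 and scrambled libraries, 1 library each. The ligand sums were 28.2 and 25.7 FPKM with a larger BMP2 and BMP7 share in shSIK2 cells, and the ID sums were 846 and 552 FPKM with a larger ID1 share in shSIK2 cells.

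The antagonists were the least abundant of the 10 genes. NOG (ENSG00000183691, chromosome 17, 56593699 to 56595590), which encodes Noggin, a protein that covers the receptor-binding faces of BMP ligands, had 1.05 FPKM in shSIK2 cells and 0.28 FPKM in scrambled cells. These were 34 and 9 reads, 3.78-fold higher in shSIK2 cells, with a wide interval (1.77 to 8.96). GREM1 (ENSG00000166923, chromosome 15, 32717974 to 32745107), which encodes Gremlin 1, a cystine-knot antagonist of BMP2 and BMP4, had 0.056 FPKM in shSIK2 cells and 0.20 FPKM in scrambled cells. Its 14 and 51 reads gave a 3.64-fold lower value (1.99 to 7.13), below the minimum and thus without a call. The fold of NOG was 13.8 times that of GREM1 (5.36 to 35.3). NOG and GREM1 thus differed in direction at levels where few reads decide the ratio.

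Other secreted antagonists and modulators were far more abundant than NOG and GREM1. Of 18 listed genes 8 were measured, 0 called higher and 1, FST, lower, beside 11.0% and 8.28% of all measured genes. The median log2 ratio was 0.10 beside -0.11 for all measured genes, and -0.067 with a minimum of 5 FPKM. FST encodes follistatin, which binds activins and, less tightly, several BMPs. It had 8.32 FPKM in shSIK2 cells and 25.5 FPKM in scrambled cells, 3.06-fold lower (2.74 to 3.43). CHRDL1, a chordin-like BMP antagonist, had 101 FPKM in shSIK2 cells and 109 FPKM in scrambled cells, 1.08-fold lower (1.04 to 1.11). Its direction turned at equal totals, with a log2 ratio of 0.035 in place of -0.11. FSTL1, a follistatin-like secreted glycoprotein, had 58.0 and 39.6 FPKM in shSIK2 and scrambled cells, 1.46-fold higher (1.41 to 1.51). CRIM1, a membrane protein that binds BMPs, had 37.8 and 45.3 FPKM in shSIK2 and scrambled cells, 1.20-fold lower (1.15 to 1.25). CHRDL2, a relative of CHRDL1 named after its values were seen, missed the minimum with 4 reads in shSIK2 cells and 53 in scrambled cells, 13.3-fold lower (4.88 to 50.4).

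ID1 and ID3 were among the most abundant transcripts of both libraries, and of ID1, ID2 and ID3 it was ID1 that differed most. ID1 (ENSG00000125968, chromosome 20, 31605283 to 31606515), the ID gene with the best studied BMP-responsive enhancer, had 505 FPKM in shSIK2 cells and 199.9 FPKM in scrambled cells. From 10678 and 4230 reads, it was 2.52-fold higher (2.44 to 2.62), and 7.12% of measured genes had a log2 ratio at least as high. Ranked by FPKM, ID1 was number 43 of all genes in shSIK2 cells and number 142 in scrambled cells. ID3 (ENSG00000117318, chromosome 1, 23557918 to 23559794), often induced together with ID1, had 256 FPKM in shSIK2 cells and 208 FPKM in scrambled cells. With 7895 and 6427 reads it was 1.23-fold higher (1.19 to 1.27). ID2 (ENSG00000115738, chromosome 2, 8678845 to 8684453), known from lymphoid and neural development, had 49.9 FPKM in shSIK2 cells and 45.2 FPKM in scrambled cells, from 1890 and 1712 reads, a fold of 1.10 (1.03 to 1.18). For ID2 and ID3 the departure from 1 exceeded counting error and was far from 2-fold.

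By level, ID1 stood 1.97 times above ID3 in shSIK2 cells (1.91 to 2.03), whereas in scrambled cells ID3 stood 1.04 times above ID1 (1.003 to 1.08). Within the family the fold of ID1 was 2.05 times that of ID3 (1.96 to 2.16) and 2.29 times that of ID2 (2.12 to 2.46). ID4, the family member taken from the list of other BMP targets, went the opposite way. It had 35.6 FPKM in shSIK2 cells and 98.8 FPKM in scrambled cells, 2.78-fold lower (2.61 to 2.95), and was called lower. The fold of ID1 was 7.01 times that of ID4 (6.53 to 7.52). Summed FPKM of the 4 ID genes was 846 in shSIK2 cells and 552 in scrambled cells, a ratio of 1.53. ID1 made up 59.6% of the sum in shSIK2 cells and 36.2% in scrambled cells, ID3 made up 30.3% and 37.7%, and ID4 4.20% and 17.9%. An annotated antisense gene overlaps ID2 with 11 reads in each library, and another overlaps ID4 with 22 reads in shSIK2 cells and 31 in scrambled cells. The sources used here do not say whether reads were counted by strand.

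The inhibitory SMADs were low in both libraries and differed in direction. SMAD6 (ENSG00000137834, chromosome 15, 66702228 to 66782848), which acts mainly on BMP signals, had 2.92 FPKM in shSIK2 cells and 1.43 FPKM in scrambled cells. Its 429 and 210 reads gave a 2.04-fold higher value (1.73 to 2.42). SMAD7 (ENSG00000101665, chromosome 18, 48919853 to 48952052), which blocks TGF-beta as well as BMP signals, had 3.48 FPKM in shSIK2 cells and 4.51 FPKM in scrambled cells. From 301 and 390 reads it was 1.30-fold lower (1.11 to 1.51). The fold of SMAD6 was 2.65 times that of SMAD7 (2.12 to 3.31), while the fold of ID1 was 1.24 times that of SMAD6 (1.04 to 1.46). Of the sum of both, SMAD6 made up 45.6% in shSIK2 cells and 24.0% in scrambled cells.

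**Figure D3:**
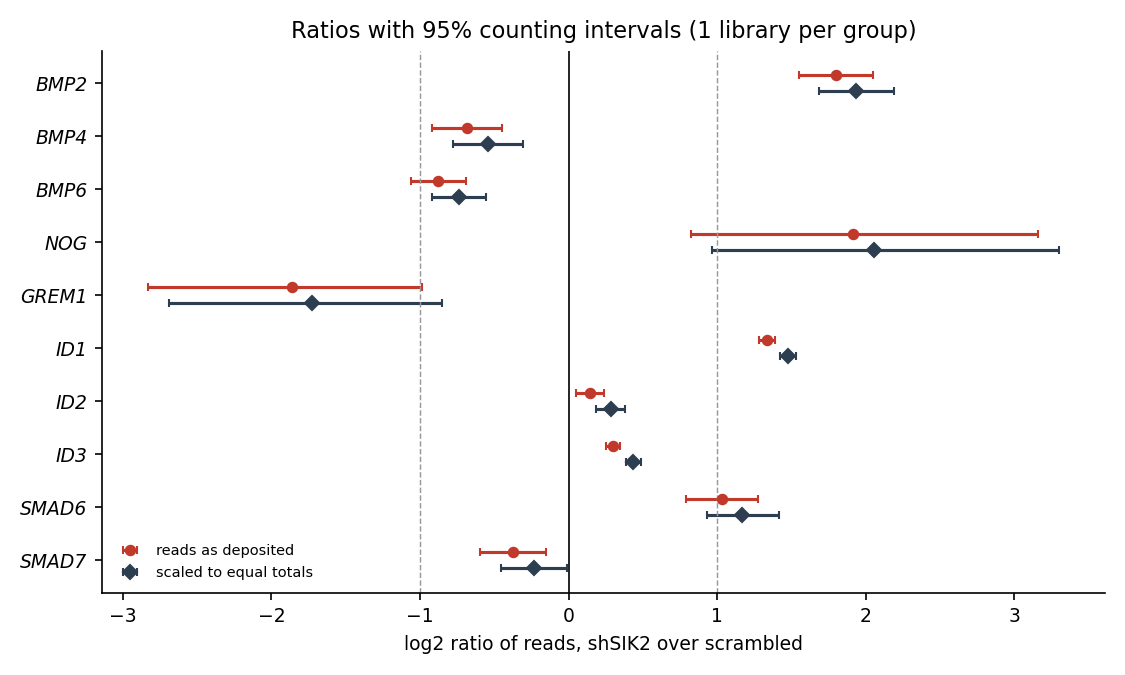
Log2 ratio of reads, shSIK2 over scrambled, for each of the 10 genes, as deposited (circles) and scaled to equal totals (diamonds), with 95% counting intervals and dashed lines at 2-fold. BMP2, NOG, ID1 and SMAD6 lie to the right with folds of 3.48, 3.78, 2.52 and 2.04, GREM1 lies to the left at 3.64-fold lower with a wide interval, and the gene nearest to 0 is ID2 as deposited and SMAD7 at equal totals.

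The start regions of 4 genes that differed in opposite directions are shown, ID1 and SMAD6, which were higher, and BMP6 and BMP4, which were lower. Of the 4, ID1 alone was called at the 2-fold limit as deposited. Each covers 240 bases that end 10 bases before the annotated start in RefSeq (GRCh38.p14), 5′ to 3′ on the strand of the gene. For BMP6 the window ends at 7726088, whereas the GENCODE span given above starts at 7726797. For BMP4, which has several starts in the RefSeq table, the first listed of these is shown, and it lies within the GENCODE span given above. Its position relative to the other BMP4 starts was not examined. Capitals mark GGCGCC, a GC-rich site that SMAD1 and SMAD5 can bind, GTCT or AGAC, the SMAD4 core site, and TGACG or CGTCA, the core of the cAMP response element, searched on both strands.
ID1 (chr20:31605039-31605278, plus strand): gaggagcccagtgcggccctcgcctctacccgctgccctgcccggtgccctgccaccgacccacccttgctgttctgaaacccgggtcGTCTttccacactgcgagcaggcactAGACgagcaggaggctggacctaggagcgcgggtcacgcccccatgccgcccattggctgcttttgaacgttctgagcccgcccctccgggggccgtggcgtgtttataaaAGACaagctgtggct
SMAD6 (chr15:66701986-66702225, plus strand): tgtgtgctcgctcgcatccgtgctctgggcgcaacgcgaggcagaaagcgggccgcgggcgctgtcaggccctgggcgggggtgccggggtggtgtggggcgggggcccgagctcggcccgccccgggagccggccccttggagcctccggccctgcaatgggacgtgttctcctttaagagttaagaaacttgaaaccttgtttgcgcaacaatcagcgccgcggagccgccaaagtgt
BMP6 (chr6:7725849-7726088, plus strand): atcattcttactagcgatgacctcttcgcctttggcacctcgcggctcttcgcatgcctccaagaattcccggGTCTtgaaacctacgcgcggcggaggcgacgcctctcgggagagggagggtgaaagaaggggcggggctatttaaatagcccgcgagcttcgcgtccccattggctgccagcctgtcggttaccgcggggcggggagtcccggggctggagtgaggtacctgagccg
BMP4 (chr14:53955061-53955300, minus strand): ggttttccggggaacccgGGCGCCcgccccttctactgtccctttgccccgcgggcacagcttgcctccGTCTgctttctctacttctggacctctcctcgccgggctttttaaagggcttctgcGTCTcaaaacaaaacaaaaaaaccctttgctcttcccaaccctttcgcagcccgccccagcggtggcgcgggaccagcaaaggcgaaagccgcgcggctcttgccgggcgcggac
GTCT or AGAC was present 3 times in the ID1 window, 2 times in that of BMP4 and 1 time in that of BMP6, and was not found in that of SMAD6. It is common, present in 76.2% of the 35116 start regions of this length. GGCGCC stood 1 time in the BMP4 window and in none of the other 3, against 15.5% of all start regions. TGACG or CGTCA was in none of the 4, against 20.5% of all. No marked sites overlap. The best known BMP-responsive elements of ID1 lie further upstream than this window. Of the 10 genes, 8 had an entry in the table of start regions, and BMP2 and NOG had none.

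None of the measured BMP receptors and co-receptors differed by 2-fold. Of 11 receptors and co-receptors 6 were measured, 0 called higher and 0 lower, beside 11.0% and 8.28% of all measured genes. With 6 genes measured, 0 calls lie near these shares. The median log2 ratio was -0.13, with a range of -0.56 to 0.10. The median was 0.047 with the GC and length trend removed and 0.0083 at equal totals. RGMB, a membrane-anchored co-receptor, had 15.1 FPKM in shSIK2 cells and 14.1 FPKM in scrambled cells. ENG, the co-receptor endoglin, had 12.7 and 14.1 FPKM in shSIK2 and scrambled cells, and ACVR1, a type I receptor, 12.4 and 13.4 FPKM. Of the 3 folds as deposited, that of ENG, 1.11-fold lower (1.01 to 1.22), had an interval that left out 1. This depended on the scaling: at equal totals the log2 ratios were 0.23 for RGMB, -0.012 for ENG and 0.029 for ACVR1.

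All 11 SMADs and intracellular regulators were measured, 1 called higher and 1 lower, beside 11.0% and 8.28% of all measured genes. Their median log2 ratio was -0.44 beside -0.11 for all measured genes, and -0.19 with the GC and length trend removed. SMAD9, one of the SMADs that BMP receptors phosphorylate, had 3.76 FPKM in shSIK2 cells and 1.39 FPKM in scrambled cells, 2.69-fold higher (2.21 to 3.30). SMAD1, SMAD5 and SMAD4, named after their values were seen, were 1.40-fold (1.24 to 1.59), 1.09-fold (1.02 to 1.17) and 1.37-fold (1.26 to 1.49) lower. At equal totals their log2 ratios were -0.34, 0.011 and -0.30, so that of SMAD5 turned. A gene annotated within an intron of SMAD9 had 5 reads in shSIK2 cells and 0 in scrambled cells. SMURF2, a ubiquitin ligase that SMAD7 brings to receptors for degradation, had 9.01 FPKM in shSIK2 cells and 22.0 FPKM in scrambled cells, 2.45-fold lower (2.28 to 2.63). It was short of 2-fold after a trend with GC content and exon length was removed, at a log2 ratio of -0.96. SKI, a corepressor of SMAD complexes, had 18.2 and 19.2 FPKM in shSIK2 and scrambled cells, 1.06-fold lower (0.99 to 1.13). The log2 ratio of SKI was 0.059 at equal totals, in the other direction. TOB1, an antiproliferative protein that binds SMADs, had 19.4 and 15.4 FPKM in shSIK2 and scrambled cells, 1.26-fold higher (1.14 to 1.40).

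Of 12 other BMP targets 4 were measured, 0 called higher and 2, ID4 and HEY1, lower. The shares of all measured genes were 11.0% and 8.28%, so 0 called higher among 4 genes says little. The median log2 ratio was -0.81. That median rests on few genes: it was 0.16 over the listed genes with any reads and -1.47 with a minimum of 5 FPKM. MSX2, a homeobox factor named after its values were seen, was under the minimum with 13 reads in shSIK2 cells and 0 in scrambled cells. HEY1, a transcriptional repressor that Notch signals also induce, had 3.28 FPKM in shSIK2 cells and 9.63 FPKM in scrambled cells, 2.93-fold lower (2.48 to 3.49). BAMBI, a pseudoreceptor that dampens BMP and TGF-beta signals, had 19.0 and 14.7 FPKM in shSIK2 and scrambled cells, 1.29-fold higher (1.16 to 1.44). The E proteins, which ID proteins hold away from DNA, were all measured, with 0 called higher and 0 lower. TCF3 had 22.2 FPKM in shSIK2 cells and 22.4 FPKM in scrambled cells, TCF12 had 7.72 and 13.1 FPKM, and TCF4 had 1.51 and 1.99 FPKM. Of 6 processing proteases 2 were measured, with 0 called higher and 0 lower. FURIN, which cleaves BMP precursors, was 1.61-fold higher (1.45 to 1.79) and BMP1, a metalloprotease that cleaves Chordin and is no BMP ligand, 1.59-fold higher (1.36 to 1.87). PCSK6, a proprotein convertase, had 13 reads in shSIK2 cells and 4 in scrambled cells. Over the 7 lists, 35 of 73 genes were measured, 2 called higher and 4 lower, beside 11.0% and 8.28% of all measured genes, with a median log2 ratio of -0.13.

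**Figure D4:**
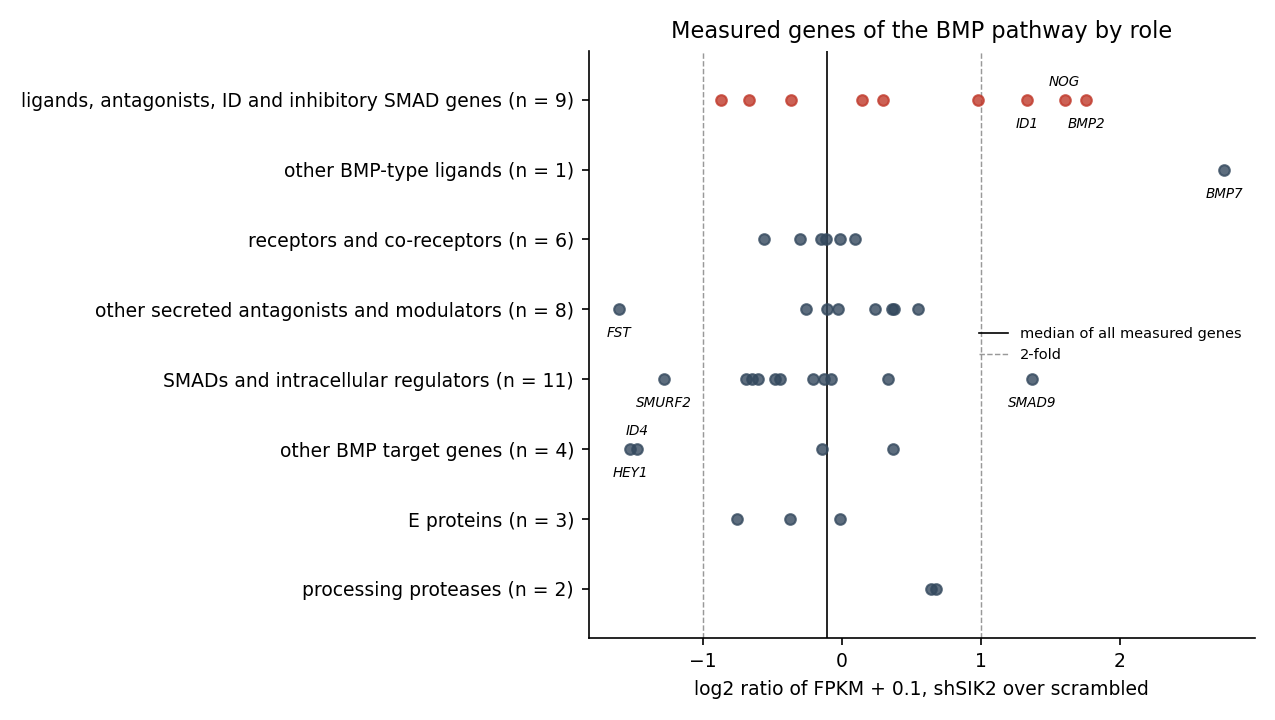
Log2 ratio of FPKM + 0.1, shSIK2 over scrambled, of each measured gene by role, with 1 point per gene, names for genes past 2-fold (dashed lines) and a line at the median of all measured genes, -0.11. The receptors lie between -0.56 and 0.10, while BMP7, BMP2, NOG, SMAD9 and ID1 lie to the right of the 2-fold line and FST, HEY1, ID4 and SMURF2 to the left.

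Position and base composition were set beside these values. BMP2, ID1 and BMP7 lie on chromosome 20, where 16.8% of 369 measured genes were called higher and 4.61% lower. Among the 12 measured genes that start within 1 Mb of ID1 the median log2 ratio was 0.05, and ID1 stood at 1.34. The 6 neighbours of BMP2 had a median of 0.34, and 1 of them was above the 1.76 of BMP2. SMAD6 at 0.98 was above all 11 of its neighbours, whose median was -0.37, and NOG at 1.60 above all 9 of its own. BMP6 at -0.87 was below all 9 of its neighbours, whose median was -0.27. ID3 at 0.30 lay amid its 22 neighbours, 11 above it and 11 below, and SMAD7 at -0.36 amid its 4, 2 above and 2 below. For BMP4 the neighbours' median was -0.48 beside its own -0.67, with 7 of the 8 neighbours above it and 1 below. Across the 12866 measured genes, which share the same pair of libraries, the log2 ratio followed GC content with a Spearman rho of 0.28. GC content was 58.1% for ID1, 57.1% for ID3, 49.3% for ID2 and 60.1% for SMAD6. It was 52.1% for BMP2, 53.8% for BMP4, 54.8% for BMP6, 59.5% for NOG, 41.7% for GREM1 and 56.7% for SMAD7. With the GC and length trend removed the log2 ratios of ID1, BMP2, NOG and SMAD6 were 1.07, 1.82, 1.41 and 0.83. The part of position in these results was not tested beyond the subtraction of the neighbours' median.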

How the data were processed

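The labels' protocols give Trizol extraction and standard Illumina library preparation by a sequencing company. The submitters' processing notes name HISAT2 2.0.5 and the build hg18. No source used here names the read counter, the annotation or the strand setting. Each deposited table holds the authors' FPKM of 58735 genes for 1 library, per the file headers, and no counts. GENCODE release 29 (GRCh38) held every gene identifier and gave symbols, exon lengths and coordinates. GRCh38 is not the build that the notes name.

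FPKM multiplied by exon length gave whole multiples of the same step of 58.3 in both libraries for 100% of values above 0 (tolerance 0.001), taken as reads. The common step means that the deposited values are not scaled to each library's total. Scaling to equal totals multiplies shSIK2 over scrambled by 1.10 and adds 0.14 to log2 ratios. Fold intervals are exact (conditional on the sum, 95%), and those of ratios between genes are Wald intervals. Intervals treat each read as independent, which PCR copies are not.

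The 10 genes and 7 lists were chosen with earlier results of these data known. Named were the 10 genes, SIK2 and, from each list, genes past 2-fold and the 3 highest in FPKM. The alternatives were equal totals, other pseudocounts, minimums and limits, a GC and length trend removed as medians in 20 bins each and, chosen after seeing the data, subtraction of the neighbours' median. Scripts were tested on simulated data. Python 3.11.15 was used with scipy 1.17.1, pandas 2.3.3 and numpy 2.4.6, and figures were drawn with matplotlib 3.10.9.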

Additional observations from a re-analysis of the deposited data

How the results depend on the processing

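With 1 library a group no library could be left out and depth alone sets the counting intervals, which are widest for NOG and GREM1. No paired analysis was possible because each group holds 1 library. Each of the 10 genes kept its sign under all 5 alternatives run for it, though SMAD7 reached -0.012 and ID3 0.041 with the neighbours' median subtracted, an alternative chosen after seeing the data. Under it BMP2 stood at 1.42, BMP4 at -0.19, BMP6 at -0.59, ID1 at 1.28 and SMAD6 at 1.35, as log2 ratios. At equal totals ID1, ID2 and ID3 were 1.48, 0.28 and 0.44. With the GC and length trend removed they were 1.07, 0.31 and 0.16. A pseudocount of 1 gave 1.49 for BMP2 and 0.69 for SMAD6, and also took NOG to 0.68, short of 2-fold. The number of the 10 genes called higher ranged from 2 to 4. Under a pseudocount of 1 or a minimum of 5 FPKM it was 2, beside 760 and 430 of all measured genes. As reported, 1414 of all measured genes were called higher. At a limit of 1.5-fold 2 were called lower, beside 21.3% of all measured genes.

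For the 7 lists, 2 of 35 measured genes were called higher as reported. They numbered 1 with a pseudocount of 1 or a minimum of 5 FPKM, and 4 with no minimum or at 1.5-fold. Genes called lower, 4 as reported, numbered 8 at 1.5-fold. Of all measured genes, 19.7% were called higher and 21.3% lower at 1.5-fold, beside 11.0% and 8.28% as reported. The median over the 7 lists, -0.13 as reported, was 0.011 at equal totals and -0.011 without the GC and length trend, beside 0.03 for all measured genes at equal totals. The lone measured gene of the other ligands, BMP7, stood at 2.89 at equal totals and with a pseudocount of 0.01, at 1.95 with a pseudocount of 1 and at 2.63 without the trend, and that list had a median of 0 with no minimum. The processing proteases, 0.66 as reported, had medians of 0.80, 0.55, 0.41 and 0.32 at equal totals, with a pseudocount of 1, without the trend and with no minimum. Over the 12866 measured genes, higher and lower calls numbered 760 and 621 with a pseudocount of 1 and 2541 and 2735 at 1.5-fold. Over all genes they numbered 430 and 551 with a minimum of 5 FPKM and 4008 and 2619 with no minimum. In these last settings the number of genes that pass differs, so no share is given. At equal totals 1723 were higher and 777 lower, so the higher share of calls was larger than as deposited (1414 and 1065). The cause of these shifts was not tested.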
